A study of Mus musculus with 2 samples.

Results

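Transcripts of the unfolded protein response and of the chaperones of the endoplasmic reticulum (ER) were followed in CE1-4 cells, a mouse prostate cancer line, with and without prostaglandin E2 (PGE2). The genes were chosen by symbol for their known roles. They were 38 of the 23420 gene symbols in the count table, and all 38 matched a row. By role they comprised 4 stress sensors, 2 transcription factors, 7 genes of the ATF4 branch, 9 genes of ER-associated degradation and 16 ER chaperones. The study held 1 library of untreated CE1-4 cells, with 16908429 counts, and 1 library of CE1-4 cells given PGE2 for 6 h, with 17582808 counts. Both were total RNA libraries, and the labels name no PGE2 dose, no vehicle, no genotype and no time in culture for the untreated cells. The series title sets the pair in work on COX-2, an enzyme of prostaglandin synthesis, and prolactin signaling between tumor and stroma, and the comparison asks which transcripts differ after PGE2. As each group had 1 library, no p-value could be computed. "Higher" and "lower" below compare these libraries, and the intervals cover counting error only.

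The cells carried the luminal keratin genes Krt8 (1256 CPM untreated, a count scaled to the size of its library) and Krt18 (758 CPM). Pbsn, which marks differentiated prostate epithelium, had 0 counts in both libraries, and a count of 0 allows a level of up to 3 counts, or 0.178 CPM in untreated and 0.170 CPM in PGE2-treated cells. Summed over each list, markers of other cell types stood at 13.7 and 16.3 CPM for basal epithelium, 11.4 and 9.13 CPM for fibroblasts, 4.21 and 3.86 CPM for leukocytes and 0.119 and 0.170 CPM for endothelium, untreated and treated. The fibroblast marker Lum, the leukocyte marker Cd3e and the endothelial marker Cdh5 were at 0 in both libraries. Other genes of these lists were detected. The basal marker Krt14 stood at 13.3 CPM untreated and 15.8 CPM treated. The fibroblast markers Pdgfra (5.46 and 4.20 CPM) and Col1a1 (4.92 and 4.31 CPM) and the leukocyte marker Cd68 (4.15 and 3.74 CPM) were also present. The part of these other markers in the results was not tested.

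The unfolded protein response matches the folding capacity of the ER to the load of secretory and membrane proteins. IRE1, PERK and ATF6 sense misfolded protein in the ER. IRE1 splices the mRNA of XBP1, PERK slows translation through eIF2 alpha while favoring translation of ATF4, and ATF6 is cut in the Golgi to release a transcription factor. These steps act on protein, on splicing or on translation, and counts per gene do not measure them. They report the levels of the sensors' own mRNAs and of the genes that the response switches on, namely chaperones, degradation factors and, through ATF4, genes of amino acid supply and cell death.

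PGE2-treated and untreated cells differed little across these genes. Of the 38, 37 reached 1 CPM in at least 1 library and were tested, and Derl3 did not. None of the 37 was at least 2-fold higher or lower with a 95% Clopper-Pearson interval that excluded a ratio of 1, a rule met by 0.0527% of all 11387 tested genes in the higher and 0.255% in the lower direction. For each of the 37 tested genes the interval excluded a 2-fold difference both ways, and for 32 of them it lay within 1.2-fold. An interval above a ratio of 1 was found for 4 members, against 6.61% of all tested genes, and one below 1 for 1 member, against 5.65%. The 4 higher genes were the chaperone genes Hsp90b1, Canx, Hspa5 and Pdia3, and the lower one was the degradation gene Derl2. On the log2 scale, ratios of PGE2 over untreated CPM had a median of -0.015 for the 37 genes and of -0.0014 for all tested genes.

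**Figure D1:**
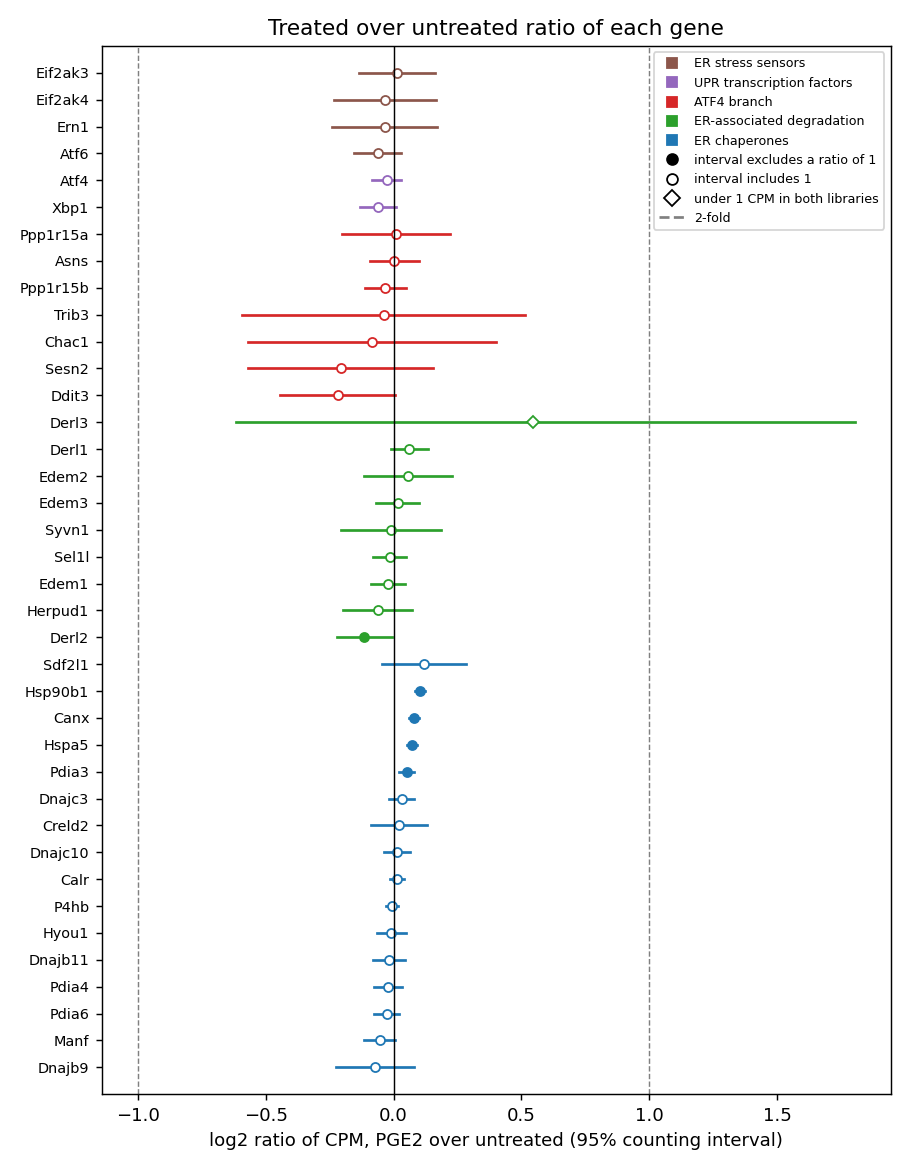
Log2 ratio of CPM, PGE2 over untreated, for each of the 38 genes, colored by role, with 95% counting intervals as bars and dashed lines at 2-fold. Filled points have intervals that exclude a ratio of 1, which are Hsp90b1, Canx, Hspa5 and Pdia3 on the higher and Derl2 on the lower side, and the diamond is Derl3, under 1 CPM in both libraries.

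The sensor mRNAs were nearly equal between the libraries. Atf6, encoding the sensor that becomes a transcription factor, had 1893 counts untreated and 1896 treated, 112 and 108 CPM, a log2 ratio of -0.062 (-0.155 to 0.031). Eif2ak3, encoding PERK, had 728 and 769 counts (0.015, -0.133 to 0.163). Ern1, encoding IRE1 alpha, had 393 and 401 counts (-0.035, -0.239 to 0.169). Every one of these intervals included a ratio of 1. Eif2ak4 encodes GCN2, a cytosolic kinase that senses uncharged tRNA and, like PERK, acts on eIF2 alpha. It had 410 and 419 counts (-0.033, -0.233 to 0.167), so that 3 of the 4 sensors had a ratio under 1, and none had an interval that excluded 1. Between genes, levels are given as CPM per kilobase of merged exons. On this scale Atf6 stood at 12.2 in the untreated library, Eif2ak3 at 7.16, Eif2ak4 at 3.26 and Ern1 at 2.85, and the counting intervals of the last pair overlapped. Atf6 was thus 4.26-fold above Ern1 untreated and 4.19-fold treated. In Eif2ak3, 8.05% of the exon bases overlap an annotated transcript on the opposite strand, and whether reads were counted by strand is not given.

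Both transcription factor genes of the response were well expressed in untreated cells. Atf4, whose protein is made mainly when eIF2 alpha is phosphorylated, had 4982 counts untreated and 5115 treated, 295 and 290.1 CPM (log2 ratio -0.026, -0.083 to 0.030). Xbp1 had 3261 and 3272 counts, 193 and 186 CPM (-0.059, -0.130 to 0.011). The 2 genes had ratios slightly under 1 with intervals that included it, and spliced and unspliced Xbp1 mRNA are counted together. Per kilobase, Atf4 stood at 125 and Xbp1 at 59.5 in the untreated library, ranks 317 and 721 among the 10721 tested genes with a length.

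The ATF4 branch held Asns and Ppp1r15b at moderate levels and 5 scarcer genes, and none of the 7 had an interval that excluded a ratio of 1. Asns, encoding asparagine synthetase, had 1786 counts untreated and 1872 treated, 106 CPM in each (log2 ratio 0.0036, -0.091 to 0.098). Ppp1r15b, encoding the constitutive regulatory subunit of the eIF2 alpha phosphatase, had 2535 and 2593 counts (-0.032, -0.111 to 0.048). Its stress-induced counterpart Ppp1r15a, also called GADD34, had 363 and 382 counts (0.0093, -0.202 to 0.221). Ppp1r15b was the higher of the pair by 3.67-fold per kilobase untreated and 3.56-fold treated. The transcript Gm26616 on the opposite strand overlaps 11.4% of the exon bases of Ppp1r15b.

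Genes linked to cell death and to strong activation of ATF4 followed. Ddit3, encoding CHOP, had 348 counts untreated and 313 treated, 20.6 and 17.8 CPM (log2 ratio -0.217, -0.442 to 0.0072). This was the largest difference from a ratio of 1 among the 37 tested members, and its interval still included 1. Of tested genes whose summed counts were from 300 to under 1000, 12.1% lay farther from 1 than Ddit3. Ddit3 shares 10.9% of its exon bases with other annotated genes, among them Mars on the opposite strand. Sesn2, encoding sestrin 2, had 137 and 124 counts (-0.207, -0.570 to 0.153). Chac1, encoding an enzyme that degrades glutathione, had 74 and 73 counts, and Trib3, encoding a pseudokinase that restrains ATF4, had 57 and 58. Their log2 intervals were wide, from -0.571 to 0.402 for Chac1 and from -0.592 to 0.514 for Trib3, and differences within them were not detectable at this depth. Per kilobase, Chac1 (2.68), Sesn2 (2.34) and Trib3 (1.59) were the lowest members apart from Derl3, where the intervals of Chac1 and Sesn2 overlapped that of Ern1, and Asns was 24.3-fold above Trib3 untreated and 25.1-fold treated.

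**Figure D2:**
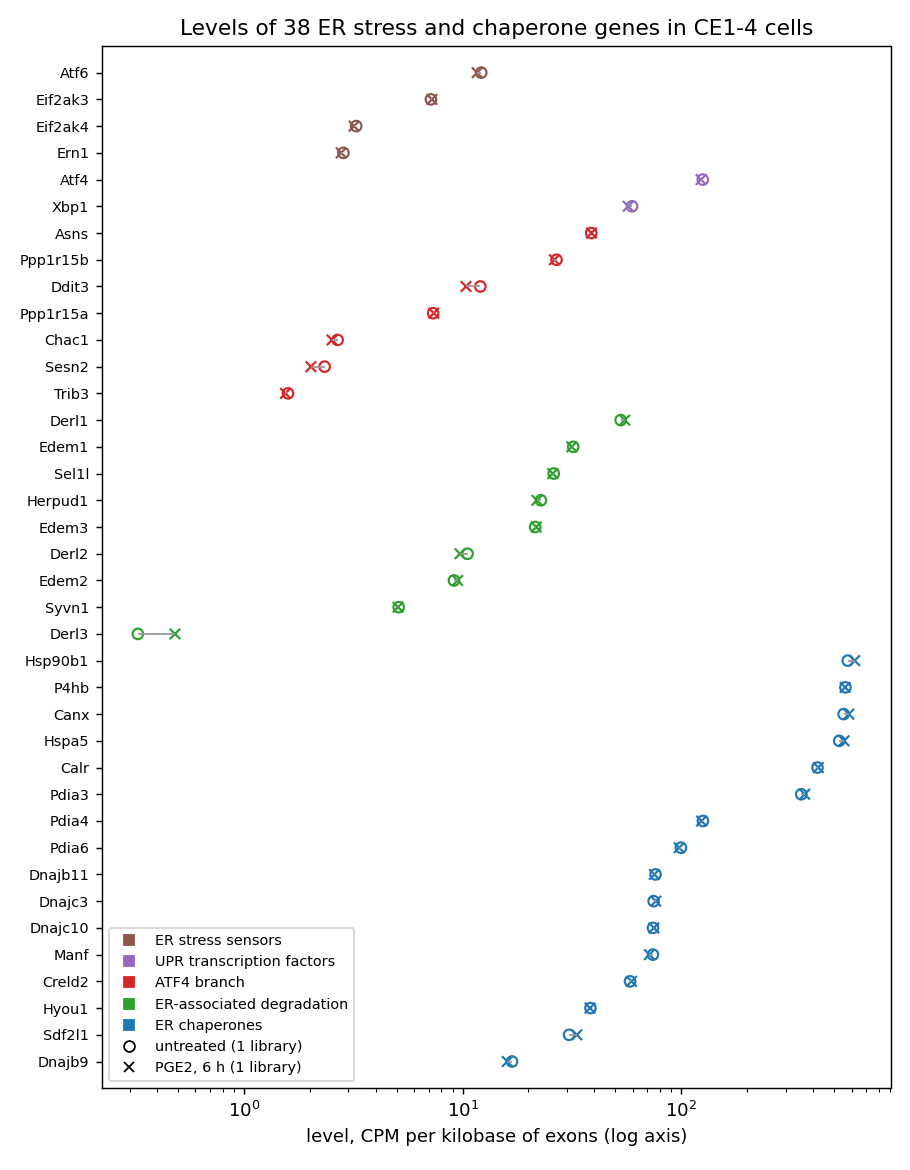
Level of each gene in CPM per kilobase of merged exons on a log axis, with a circle for the untreated and a cross for the PGE2 library, 1 library each, colored by role. In the untreated library the levels run from 0.327 for Derl3 to 577 for Hsp90b1, and circle and cross nearly coincide for most genes.

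Genes of ER-associated degradation, which returns misfolded proteins to the cytosol for destruction by the proteasome, were expressed at intermediate levels. The core ligase complex was present, with Sel1l, the adaptor, at 3764 counts untreated and 3895 treated (log2 ratio -0.015, -0.080 to 0.050). Syvn1, encoding the ubiquitin ligase HRD1, had 418 and 434 counts (-0.010, -0.207 to 0.187). Per kilobase Sel1l was 5.11-fold above Syvn1 untreated and 5.10-fold treated. Herpud1, a membrane protein of the same complex that is strongly induced by ER stress, had 897 and 899 counts (-0.061, -0.196 to 0.074). None of these genes of the complex had an interval that excluded 1.

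The mannosidase-like EDEM proteins, which mark glycoproteins for disposal, were likewise close between libraries. Edem1 had 3487 counts untreated and 3590 treated (log2 ratio -0.022, -0.090 to 0.045), and Edem3 2310 and 2442 (0.016, -0.067 to 0.099). Edem2 had 533 and 579 counts (0.055, -0.117 to 0.228). In the untreated library Edem1 was the highest of the family at 32 CPM per kilobase and stood 3.51-fold above Edem2.

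The derlins, membrane proteins of the channel for export from the ER, differed in level. Derl1 had 2963 counts untreated and 3235 treated, 176 and 183 CPM (log2 ratio 0.062, -0.0099 to 0.135). Derl2 had 1429 and 1380 counts, 84.7 and 78.3 CPM (-0.115, -0.222 to -0.0069). Derl2 was the 1 member with an interval below 1, and its upper bound lay close to 0. Scaled on total counts, by DESeq2 or on the upper quartile, or with a 99% interval, that interval included 1, and among tested genes whose summed counts were from 1000 to under 3000, 18.97% lay farther from a ratio of 1. Derl3, known from secretory tissues such as pancreas, had 11 and 17 counts, 0.652 and 0.964 CPM, and its interval of -0.615 to 1.80 did not exclude a 2-fold difference. Per kilobase Derl1 was 5.01-fold above Derl2 untreated and 5.67-fold treated. Over the 8 tested degradation genes, 3 had a ratio over 1 and 5 under 1, with a median log2 ratio of -0.012.

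The ER chaperones made up most of the signal. Together the 16 genes held 226710 counts untreated and 245354 treated, 1.34% (exact binomial interval 1.34 to 1.35) and 1.40% (1.39 to 1.40) of all counts. They carried 88.4% of the summed level per kilobase of the 38 genes without PGE2 and 88.8% with it. Within them, Hsp90b1, P4hb, Canx, Hspa5, Calr and Pdia3 held 82.4% of the chaperone counts untreated and 83.0% treated. Each of the 6 was among the 100 highest tested genes per kilobase, between rank 44 for Hsp90b1 and rank 96 for Pdia3.

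Among these abundant chaperones 4 were higher in the treated library by a few percent. Hsp90b1, encoding GRP94, the HSP90 protein of the ER, had 39218 counts untreated and 44088 treated, 2326 and 2501 CPM. Its log2 ratio was 0.105 (0.085 to 0.124), or 7.52% higher (6.06 to 8.99). Hspa5 encodes BiP, the ER HSP70 that also holds the sensors inactive. It had 37588 and 41326 counts, 2229 and 2344 CPM, a log2 ratio of 0.072 (0.052 to 0.093), or 5.15% higher (3.69 to 6.64). Canx, encoding the membrane lectin chaperone calnexin, had 43683 and 48267 counts, 2591 and 2738 CPM (0.080, 0.061 to 0.098), or 5.68% higher (4.32 to 7.06). Pdia3, encoding the disulfide isomerase ERp57 that works with calnexin and calreticulin, had 18711 and 20277 counts, 1109.6 and 1150.1 CPM (0.052, 0.023 to 0.080), or 3.65% higher (1.60 to 5.73). On GRCm38 the genes lie at chr10:86690209-86705509 (Hsp90b1, minus strand), chr2:34771970-34777547 (Hspa5, plus strand), chr11:50293961-50325673 (Canx, minus strand) and chr2:121413775-121438687 (Pdia3, plus strand), per GENCODE M21. For all 4 genes the counting interval stayed above 1 with each alternative scaling, with a trend on abundance or GC content subtracted, and at 99%.

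The remaining pair of the abundant 6 was nearly equal between the libraries. Calr, encoding calreticulin, the soluble partner of calnexin, had 20362 counts untreated and 21479 treated, 1208 and 1218 CPM (log2 ratio 0.013, -0.015 to 0.041). P4hb, encoding the main protein disulfide isomerase, had 27155 and 28300 counts, 1610 and 1605 CPM (-0.0047, -0.029 to 0.019). The transcripts of the 4 higher genes had GC contents of 42.05 to 46.9%, against 53.8% for P4hb and a median of 49.3% over the tested genes. With a trend of the ratio on GC content subtracted, the log2 ratio was 0.076 for Hsp90b1, 0.067 for Hspa5, 0.052 for Canx, 0.054 for Pdia3, 0.034 for Calr and 0.022 for P4hb, and the interval of Calr then lay above 1. The part of GC content in these ratios was not tested further. Other annotated transcripts overlap 15.7% of the exon bases of Hsp90b1. Among them is 1810014B01Rik on the opposite strand, with 63 and 58 counts of its own.

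Such small ratios are common among abundant genes, whose counting intervals are narrow. Of the 622 tested genes whose summed counts reached 10000, intervals lay above 1 for 33.4% and below 1 for 12.9%. In that range lay 11 members, which were 10 chaperones and Atf4, and 4 of them (36.4%) had an interval above 1 and none below. This share is near that of other genes of the same range. Singly, 7.89% of the other genes of the range lay farther from a ratio of 1 than Hsp90b1, 18.5% farther than Canx, 23.0% farther than Hspa5 and 37.0% farther than Pdia3. For summed counts from 3000 to under 10000, intervals lay above 1 for 14.2% of tested genes and below 1 for 6.47%, and none of the 11 members in that range had either. With a trend of the ratio on abundance subtracted, the log2 ratios were 0.084 for Hsp90b1, 0.060 for Canx, 0.052 for Hspa5 and 0.029 for Pdia3, which for Pdia3 is lower than its unadjusted 0.052 by more than 1.5 times.

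**Figure D3:**
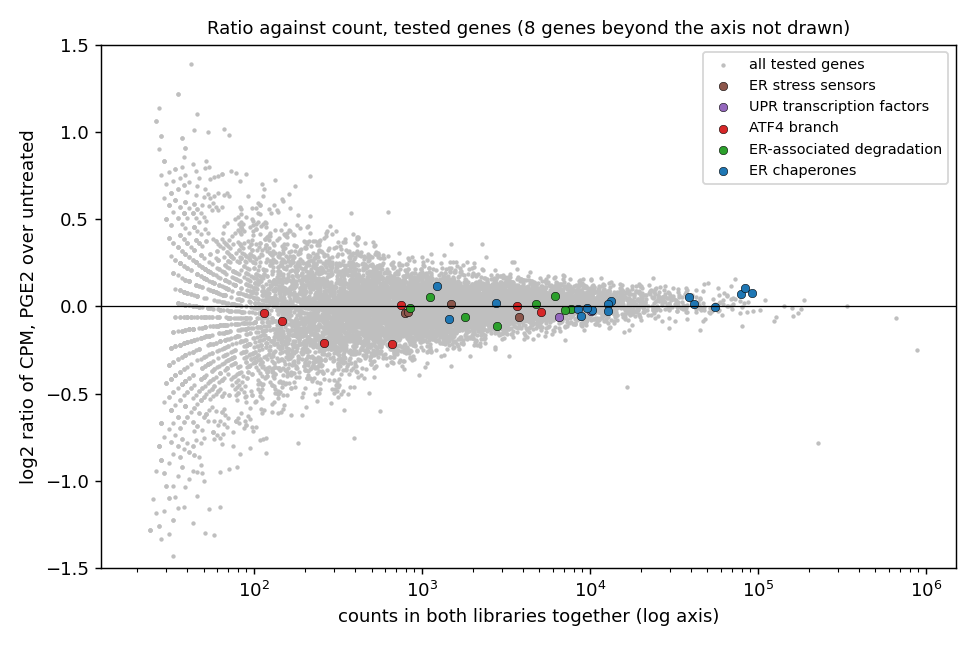
Log2 ratio of CPM, PGE2 over untreated, against the counts of both libraries together on a log axis, for all tested genes in grey and for the 37 tested members colored by role. The members lie inside the cloud of other genes, with Hsp90b1, Canx and Hspa5 at its right end slightly above 0, and 8 genes beyond 1.5 on the vertical axis are not drawn.

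The other chaperones had intervals that included a ratio of 1. BiP's J-domain partners, which stimulate its ATPase, were represented by Dnajb11 (4157 counts untreated and 4295 treated, log2 ratio -0.017), Dnajc3 (6478 and 6927, 0.032), Dnajc10 (6261 and 6608, 0.013) and Dnajb9 (723 and 719, -0.072). Dnajb9, or ERdj4, binds BiP and IRE1 and is induced by the response. It was the lowest chaperone per kilobase at 16.8 untreated, and Hspa5 stood 31.3-fold above it. Dnajb11, Dnajc3 and Dnajc10 lay at 76.2, 74.7 and 74.2 CPM per kilobase, with overlapping intervals. Hyou1, encoding GRP170, a nucleotide exchange factor for BiP, had 4684 and 4870 counts (-0.0081, -0.066 to 0.050).

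The disulfide isomerases below Pdia3 were Pdia4 with 5078 counts untreated and 5232 treated (log2 ratio -0.021, -0.077 to 0.035) and Pdia6 with 6289 and 6452 (-0.027, -0.078 to 0.023). Pdia3 stood 2.82-fold above Pdia4 per kilobase untreated and 2.96-fold treated. Among small ER proteins induced by stress, Manf, a secreted factor with cytoprotective activity, had 4407 and 4439 counts (-0.054, -0.114 to 0.0066). Creld2, an ER protein with EGF-like domains, had 1343 and 1425 (0.021, -0.087 to 0.130). Sdf2l1, a component of the BiP chaperone complex, had 573 and 650 counts (0.117, -0.047 to 0.282), the largest ratio over 1 among tested members, with an interval that included 1. In Manf, 9.25% of the exon bases overlap other annotated genes. Over the 16 chaperones, 9 had a ratio over 1 and 7 under 1, with a median log2 ratio of 0.013 (-0.0082 with the abundance trend subtracted, so that no direction is given for it).

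The 5 roles were thus close to each other in their ratios. Medians were -0.034 for the sensors, -0.043 for the transcription factors, -0.039 for the ATF4 branch, -0.012 for degradation and 0.013 for the chaperones, on the log2 scale. For counts summed over a role, the log2 ratio was -0.039 (-0.107 to 0.030) for the sensors, -0.039 (-0.083 to 0.0047) for the transcription factors, -0.033 (-0.088 to 0.022) for the ATF4 branch and -0.0054 (-0.037 to 0.026) for degradation. For the chaperones it was 0.050 (0.042 to 0.058), and without Canx, their most abundant gene, 0.042. The chaperone sum was the 1 of these 5 whose interval excluded 1. It also held the most counts, 226710 untreated against 3424 to 15812 for the other roles, and so had the narrowest interval. Of all tested genes with summed counts of at least 10000, 64.5% had a ratio over 1, with a median log2 ratio of 0.019.

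**Figure D4:**
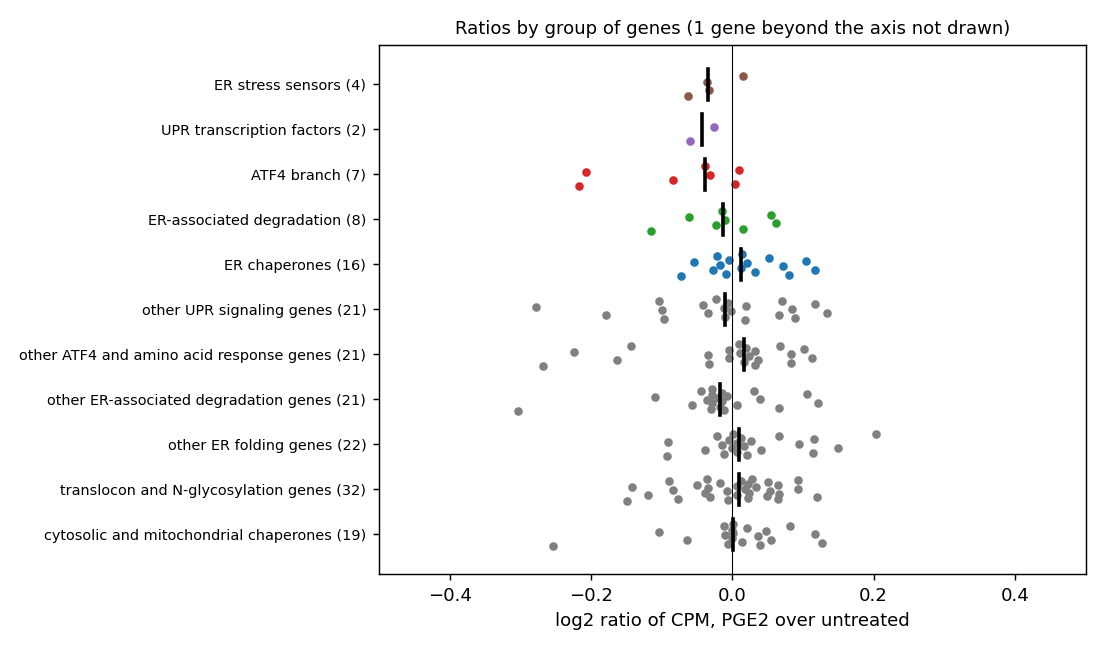
Log2 ratio of CPM, PGE2 over untreated, of each tested gene by list, with the number of genes in parentheses and a black bar at the median, for the 5 roles in color and for related lists in grey. The medians lie between -0.043 and 0.016, and 1 gene (Creb3l1, 18 and 10 counts, log2 ratio -0.879) is beyond the axis.

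The promoters of the members were searched for sequence elements. The genes were chosen for known roles in the response, and factors of the same response bind some of these elements. A larger share of matches among the members is therefore no independent result. RefSeq windows on GRCm38.p6, from 250 bases before to 50 bases after each annotated start, were found for 33 of the 38 genes. Both strands were searched for exact matches to 5 motifs. The ER stress element ERSE is CCAAT and CCACG with 9 bases between them, and is bound by NF-Y together with ATF6 or XBP1. ERSE-II is ATTGG and CCACG with 1 base between them. The other motifs were TGACGTGG (UPRE, for XBP1), TGATGNAA (CARE, for ATF4 with C/EBP proteins) and TGACGTCA (CRE, for CREB, a factor activated by cAMP). ERSE and ERSE-II share half-sites, as do UPRE and CRE, but no match in the members' windows overlapped a match to another motif. A match is a description of sequence, not a site.

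ERSE matched in the windows of 7 of 14 chaperone genes, of Derl3 and of Syvn1. In the whole table it matched in 37 of 27025 genes (0.137%), and 9 of those 37 were members. The chaperone genes with a match were Hspa5, Hsp90b1, Canx, Calr, Dnajc3, Pdia6 and Creld2. Their sequences are printed because they include 3 of the 4 genes with an interval above 1 and also genes without one. Each is written 5′ to 3′ on the strand of its gene and lies before the annotated start, with the ERSE half-sites in capitals. On the opposite strand the element reads CGTGG, 9 bases and ATTGG. Hspa5 (chr2:34771840-34772089, plus strand) is given as the 250 bases before the RefSeq start, with the element from 65 to 47 bases before it. The GENCODE start of Hspa5, at 34771970, lies within this stretch and before the element. Hsp90b1 (chr10:86705513-86705676, minus strand) holds 2 elements in opposite orientation, from 212 to 194 and from 107 to 89 bases before the start. The stretches of the other genes hold 20 bases on each side of the element and are Canx (chr11:50325780-50325838, minus strand), Calr (chr8:84847055-84847113, minus strand), Dnajc3 (chr14:118937807-118937865, plus strand), Pdia6 (chr12:17266471-17266529, plus strand) and Creld2 (chr15:88819500-88819558, plus strand).
Hspa5: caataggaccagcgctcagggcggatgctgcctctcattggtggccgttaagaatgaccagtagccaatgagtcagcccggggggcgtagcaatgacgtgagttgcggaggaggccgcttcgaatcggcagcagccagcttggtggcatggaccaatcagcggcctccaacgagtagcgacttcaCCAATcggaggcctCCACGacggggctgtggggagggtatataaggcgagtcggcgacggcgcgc
Hsp90b1: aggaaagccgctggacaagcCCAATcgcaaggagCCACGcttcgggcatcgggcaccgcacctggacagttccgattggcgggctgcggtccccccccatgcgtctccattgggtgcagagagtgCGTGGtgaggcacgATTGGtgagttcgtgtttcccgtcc
Canx: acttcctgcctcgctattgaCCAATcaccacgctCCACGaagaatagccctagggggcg
Calr: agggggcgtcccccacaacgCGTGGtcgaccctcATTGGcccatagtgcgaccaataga
Dnajc3: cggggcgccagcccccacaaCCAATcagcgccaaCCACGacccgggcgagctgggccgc
Pdia6: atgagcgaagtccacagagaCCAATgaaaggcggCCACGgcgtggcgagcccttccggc
Creld2: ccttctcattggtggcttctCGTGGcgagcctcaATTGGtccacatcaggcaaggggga

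Chaperone genes with and without ERSE overlapped in their ratios. The 7 genes with a match had log2 ratios from -0.027 to 0.105, with a median of 0.032 and 3 intervals above 1. The 7 genes with a window but no match were Dnajb9, Dnajb11, Dnajc10, Pdia3, Pdia4, P4hb and Sdf2l1. They had log2 ratios from -0.072 to 0.117, with a median of -0.0047 and 1 interval above 1. All genes with a match but Creld2 had summed counts of at least 10000. Of those without, only Dnajc10, Pdia3, Pdia4 and P4hb did. In that range 33.4% of all tested genes had an interval above 1. The part of abundance in this contrast was not tested. In level per kilobase the medians were 419 CPM with and 76.2 CPM without a match in the untreated library, and P4hb and Pdia3, among the highest chaperones, had no match. No match means only that these letters are not in the window.

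In the degradation and ATF4 groups other elements appeared. Herpud1 held both an ERSE-II, from 52 to 42 bases before the start, and a CARE, from 112 to 105 bases before it. ERSE-II also matched for Dnajb11, 7 bases after the start. It matched in 0.0444% of all genes of the table and CARE in 4.51%. CARE also matched for 3 of the 6 ATF4 branch genes with a window, Asns, Chac1 and, 14 bases after the start, Trib3. In the chaperone windows CARE matched for none of 14. The CRE, of interest because PGE2 receptors can raise cAMP, matched for 1 member, Ppp1r15a, from 12 to 5 bases before the start. This was 3.03% of the members with a window, near the 2.03% of all genes. UPRE matched for no member and 0.714% of all genes. The stretches that carry these elements before the start, and that of Syvn1 with its ERSE, are printed with the motif letters in capitals, so that each match can be set beside its gene's ratio. They are Herpud1 (chr8:94386297-94386407, plus strand), Syvn1 (chr19:6046512-6046570, plus strand), Asns (chr6:7693210-7693252, minus strand), Chac1 (chr2:119351029-119351076, plus strand) and Ppp1r15a (chr7:45526269-45526300, minus strand). In Chac1 and in the CARE of Herpud1 the element lies on the opposite strand and reads TTNCATCA. The starts are those of RefSeq, and the stretch of Asns lies inside its GENCODE gene, chr6:7675169-7693254.
Herpud1: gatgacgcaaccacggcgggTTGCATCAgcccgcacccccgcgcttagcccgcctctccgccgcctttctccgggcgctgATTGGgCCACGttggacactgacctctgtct
Syvn1: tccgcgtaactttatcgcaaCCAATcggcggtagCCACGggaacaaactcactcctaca
Asns: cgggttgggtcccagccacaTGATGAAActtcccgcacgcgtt
Chac1: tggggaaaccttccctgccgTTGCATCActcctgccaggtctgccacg
Ppp1r15a: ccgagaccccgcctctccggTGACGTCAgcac

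None of the 5 genes printed here had an interval that excluded a ratio of 1, Ppp1r15a with its CRE included (log2 ratio 0.0093). Whether any of these elements, or cAMP, acted in these cells was not tested.

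**Figure D5:**
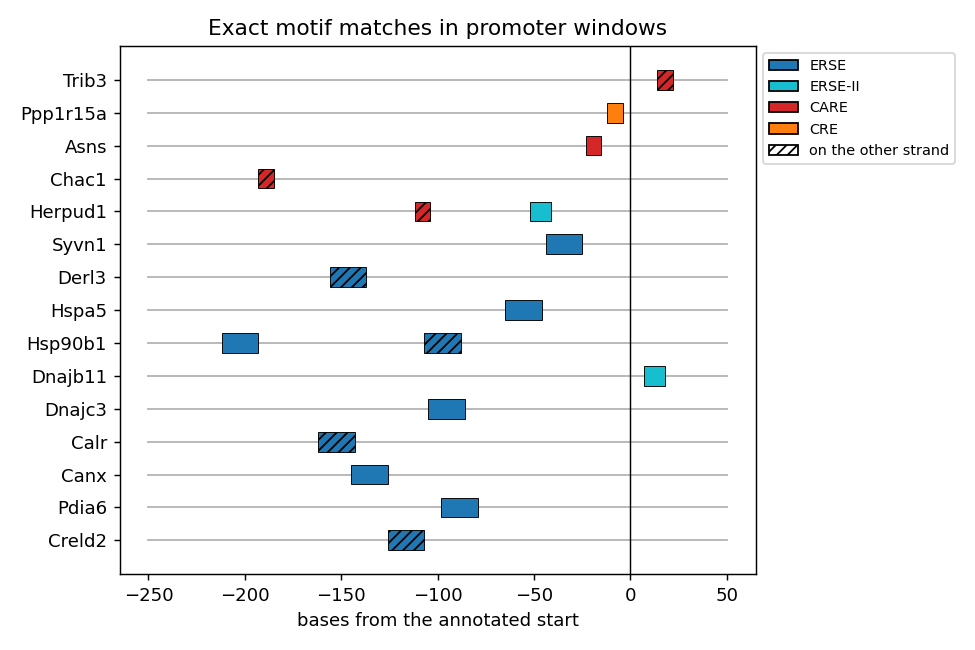
Exact motif matches in the promoter windows of the 15 members with at least 1 match, by distance in bases from the annotated start (vertical line), with hatching for matches on the other strand. ERSE matches lie between 212 and 26 bases before the start, in 7 chaperone genes and in Syvn1 and Derl3.

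Related genes of the pathway, taken from lists written for their roles, were counted in the same way. Of 21 tested genes of 23 in other UPR signaling, 1 had an interval above 1 and 1 below. These were Eif2s1, encoding eIF2 alpha, the target of PERK and GCN2 (5101 counts untreated and 5655 treated, log2 ratio 0.085, 0.030 to 0.139), and Tmbim6, encoding a membrane protein that restrains IRE1 and the most abundant gene of the list (7068 and 6910, -0.097, -0.145 to -0.049). The list's median was -0.0098. Of 21 tested genes of 24 in the wider ATF4 and amino acid response, none had an interval that excluded 1, and the median was 0.016. Psat1, an enzyme of serine synthesis, was the most abundant at 239 CPM untreated (0.0099, -0.053 to 0.072).

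Further degradation factors had a median of -0.017. Beside 6.61% above 1 and 5.65% below among all tested genes, 2 of their 21 intervals (9.52%) lay above 1 and none below. They were Ube2j1, a ubiquitin-conjugating enzyme of the ER membrane (1213 counts untreated and 1380 treated, log2 ratio 0.122, 0.0095 to 0.234), and the ligase Rnf139 (1568 and 1764, 0.106, 0.0067 to 0.205). Vcp, the ATPase that extracts substrates from the membrane, led in abundance with 710 CPM (-0.015, -0.051 to 0.021). Of 22 tested genes of 25 in other ER folding, 1 (4.55%) had an interval above 1 and none below. It was Ero1l, encoding the oxidase that recharges disulfide isomerases (4270 and 4674, 0.066, 0.0060 to 0.126). Ganab, the glucosidase II subunit that feeds the calnexin cycle, had the highest count of the list, 487 CPM (0.0008, -0.043 to 0.045). Serpinh1, encoding the collagen chaperone HSP47, had 1 count in each library and Fkbp10, encoding a collagen prolyl isomerase, 0 in both, a pair named after its values were seen.

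Genes of the translocon and of N-glycosylation gave 6 of 32 intervals above 1 (18.8%) and 3 below (9.38%), with a median of 0.0095. Among all tested genes 6.61% lay above 1 and 5.65% below. For summed counts from 3000 to under 10000 the shares were 14.2% and 6.47%, and for at least 10000 they were 33.4% and 12.9%. In the latter range Ssr1, Ssr3, Spcs3 and Tram1 had intervals above 1, and Sec62, Sec63, Rpn2, Stt3a, Stt3b and Magt1 had intervals that included 1. By size, the genes with an interval that excluded 1 were led by Ddost, a subunit of the oligosaccharyltransferase (1569 counts untreated and 1480 treated, log2 ratio -0.149). Then came Sec11c, a signal peptidase subunit (1743 and 1981, 0.120), and Srp14 of the signal recognition particle (1852 and 1783, -0.119). Ssr3, a translocon-associated protein, reached 1075 CPM, the highest of the list (0.054, 0.025 to 0.083). The list held genes on both sides of 1.

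Chaperones outside the ER also had small ratios, mostly over 1 where they were abundant. Of 19 cytosolic and mitochondrial chaperone genes, 7 had an interval above 1 (36.8%) and 1 below, with a median of 0.0012. Among all tested genes 6.61% lay above 1 and 5.65% below, and of those with summed counts of at least 10000, 33.4% lay above. In that range Hspa8, Hspa4, Hsp90aa1, Hspd1, Hspa9 and Cct5 had an interval above 1, and Hsp90ab1, Dnaja1, Dnaja2 and Cct2 one that included 1. The other genes of the list had fewer counts, so its 36.8% is not a share of that range. Summed over the 19 genes, the log2 ratio of counts was 0.045 (0.037 to 0.053), beside 0.050 (0.042 to 0.058) for the ER chaperones. Hsp90aa1, the stress-inducible cytosolic relative of Hsp90b1, had 32490 counts untreated and 36837 treated (0.117, 0.095 to 0.138). Hspe1, the mitochondrial HSP10, had 3150 and 3597 (0.127, 0.058 to 0.197). Hspa8, the constitutive HSP70, led the list in abundance with 5381 CPM (0.037, 0.024 to 0.050), and the cochaperone gene Bag3 was lower (366 and 321, -0.253, -0.474 to -0.033).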

How the data were processed

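RNA from 1 untreated and 1 PGE2-treated CE1-4 culture was sequenced as stranded total RNA, per the labels' protocols. The deposited table holds raw read counts per gene symbol. Tools named in the submitters' processing notes are HTSeq, Bowtie, TopHat2 and Trimmomatic, with the build mm10. For versions, annotation and the strand setting of counting no source used here gives a value.

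Counts were scaled with TMM (edgeR 4.0.16, R 4.3.3). Log2 ratios of CPM used a prior of 0.5 counts and were computed over the whole table, with 95% Clopper-Pearson intervals conditional on the sum of both counts. Genes reaching 1 CPM in at least 1 library were tested. No p-value was computed. Intervals and the floor of 3 counts cover counting error only. The procedure was tested on simulated Poisson counts. These hold no variation between cultures, so that test says nothing of differences beyond counting error. Exon lengths, overlaps and GC content came from GENCODE M21 on GRCm38, the assembly also named mm10. Counts per kilobase depend on that annotation, since the one used for counting is not known. Promoters are RefSeq sequences on GRCm38.p6, with RefSeq starts. In the related lists 5 symbols were matched through RefSeq synonyms. Near-identical transcripts were sought with blastn 2.17.0 (at least 90% identity over 200 bases). They were found as processed pseudogenes for Calr, Derl1 and Dnajb9, whose counts could be split. Overlapping transcripts on the opposite strand also matched, for Hsp90b1 (1810014B01Rik), Eif2ak3 (Gm43292) and Ppp1r15b (Gm26616).

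All members were named, plus from each related list up to 3 tested genes with an interval that excluded 1, by size, and the most abundant gene. Members and lists were chosen with earlier results of these data known. Protein sequences were not analysed here.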

Additional observations from a re-analysis of the deposited data

How the results depend on the processing

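No replicate could be left out. No paired analysis was possible because each group holds 1 library. The 4 intervals above 1 (Hsp90b1, Hspa5, Canx, Pdia3) were found under each alternative run, and with the GC trend, an alternative chosen after seeing the data, there were 6, with Calr and Derl1. Runs with another prior, minimum CPM or fold could not change the calls of these 4 abundant genes, because the interval does not use those settings. The 1 interval below 1 became 0 under total counts, DESeq2, upper quartile and the 99% interval. It became 4 with the abundance trend subtracted (Derl2, Manf, P4hb and Xbp1) and 3 on totals without Rn45s, Lars2 and Malat1, also chosen after seeing the data (Derl2, Ddit3 and Manf). No member passed 2-fold, or 1.5-fold, under any alternative run. The median of the pair of transcription factors moved from -0.043 to -0.060 with the abundance trend and to -0.017 with the GC trend. With the longest transcript as length the chaperones held 87.8% of the summed level in place of 88.4%. The cause of these shifts was not tested. Among alternative values of single members and of the median of all genes, 334 stayed close to the reported value, within the counting interval for a member, and 6 moved farther (Hsp90b1 and Canx under both trends, Hspa5 under the abundance trend and P4hb under the GC trend). The 334 include runs with another minimum CPM, which leave a member's ratio unchanged by design. Small differences were detectable at this depth mainly for the most abundant members, while the intervals of Ddit3, Trib3, Chac1, Sesn2 and Sdf2l1 reached beyond 1.2-fold.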
